A study of Homo sapiens with 12 samples.

Results

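RKO cells, an established human colorectal cancer line, were compared after exposure to thymoquinone (TQ) alone and without it. The comparison took in 6 of the 12 arrays of the series, namely the 3 labelled as TQ treatment and the 3 labelled as control cells, and covered the 22215 probe sets that are not array controls, which stand for 11963 genes. TQ was given at 20 µM for 24 h, after the cells had been left to attach for 48 h. The control cells carried no drug; they are untreated according to the sample labels and received DMSO according to the methods, so solvent and drug cannot be told apart if only the TQ cells held DMSO. In a pair of further groups of 3 arrays each, cells were given TQ at 20 µM with 5-fluorouracil (5-FU) at 10 µg/mL (76.8 µM), or 5-FU at that dose without TQ. They were used here only to read the effect of TQ on a second set of arrays. RKO is a single line with mutant BRAF, and nothing in the labels says which arrays are separate cultures, so the p-values measure only the spread between these arrays.

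TQ is the main quinone of black seed oil. Quinones react with the thiol groups of proteins, and such electrophiles are known to set off a heat shock response and the antioxidant programme of NRF2. In the heat shock response, the factor HSF1 trimerizes and binds heat shock elements, inverted repeats of the motif GAA, upstream of chaperone genes. In the NRF2 programme, the sensor KEAP1 loses its hold on NRF2, which then binds antioxidant elements in genes of quinone reduction and of glutathione synthesis. The integrated stress response, in which translation of ATF4 raises genes of amino acid synthesis and transport, is a further programme that such compounds can touch.

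The values are log2 signals after RMA, and a difference of 1 is a 2-fold difference. Within the TQ group and within the control group the correlation between arrays was 0.996 to 0.998, and between the groups 0.983 to 0.994. Poly-A spike-ins lay at 8.84, 8.45 and 8.41 in the TQ arrays, against 8.69, 8.50 and 8.97 in the control arrays, so their ranges overlapped. Of the 5 epithelial markers 3 lay above the median signal of all probe sets (6.52), KRT18 and EPCAM among them, and of the 5 intestinal markers 2 did. None of the 5 leukocyte markers and none of the 3 endothelial markers did, and 1 of the 6 fibroblast markers did. KRT19 and CDH1, which mark epithelium, were among the dim ones. Outside the comparison, 2 arrays were unlike the others of their groups, the third replicate of 5-FU and the second of TQ+5-FU. They did not enter the test of TQ against control, but many probe sets that moved with TQ also moved in them, as described next.

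TQ cells differed from control cells in 6552 of 22215 probe sets (29.5%) by limma with Benjamini-Hochberg adjustment, 3116 of them higher and 3436 lower. The words rose and fell are kept for features whose adjusted p was under 0.05. Small differences made up most of the count. At 2-fold or more, 599 probe sets passed (2.70%), and almost all of these were higher: 584 rose (2.63%) and 15 fell (0.0675%). At 3-fold, 34 passed (0.153%), of which 31 rose (0.140%) and 3 fell (0.0135%). Over genes, each read from its brightest probe set, 1802 rose (15.1%) and 1904 fell (15.9%), and the median difference over all genes was -0.09. The arrays of TQ and control cells did not overlap for 9864 probe sets (44.4%). The number of calls rests on the spread within these 6 arrays: with all 12 arrays in a single fit 56 probe sets passed, and 6799 did with the pair of unlike arrays left out of that fit. Without TQ replicate 3 the count was 4189.

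Most of the probe sets that rose 2-fold shared a further property. Of the 584, 519 (88.9%) lay more than 1 log2 unit below their replicates in 5-FU replicate 3, against 17.8% of all probe sets. Such a probe set is called displaced below. The same 584 were higher in control replicate 1 than in control replicate 3 in 557 cases (95.4%), against 41.0% of all. Their median, set against the control mean, was 0.99, 1.24 and 1.27 in the TQ arrays, against 0.25, 0.02 and -0.26 in the controls; it was 0.97, -0.69 and 0.39 in the TQ+5-FU arrays, against 0.55, 0.38 and -1.92 in the 5-FU arrays. Among the 2029 probe sets displaced by more than 2 units, 74.1% rose with TQ and 0.296% fell, whereas among the 1391 raised by more than 1 unit in that array, 1.37% rose and 29.5% fell. Across probe sets the difference between TQ and control correlated with the displacement at r = -0.688; the probe sets share their arrays, and the difference and the displacement share no array. What moves these probe sets together, and its part in the rises, was not tested. Most of the rises named below are therefore given with their displacement. Only 65 probe sets rose 2-fold without being displaced, and of the 15 that fell 2-fold 14 were not displaced. However, the word covers downward shifts only, and 5 of these 15 were raised by more than 1 unit in that array. CHAC1, MNT and FRAT1 were among the 5.

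**Figure D1:**
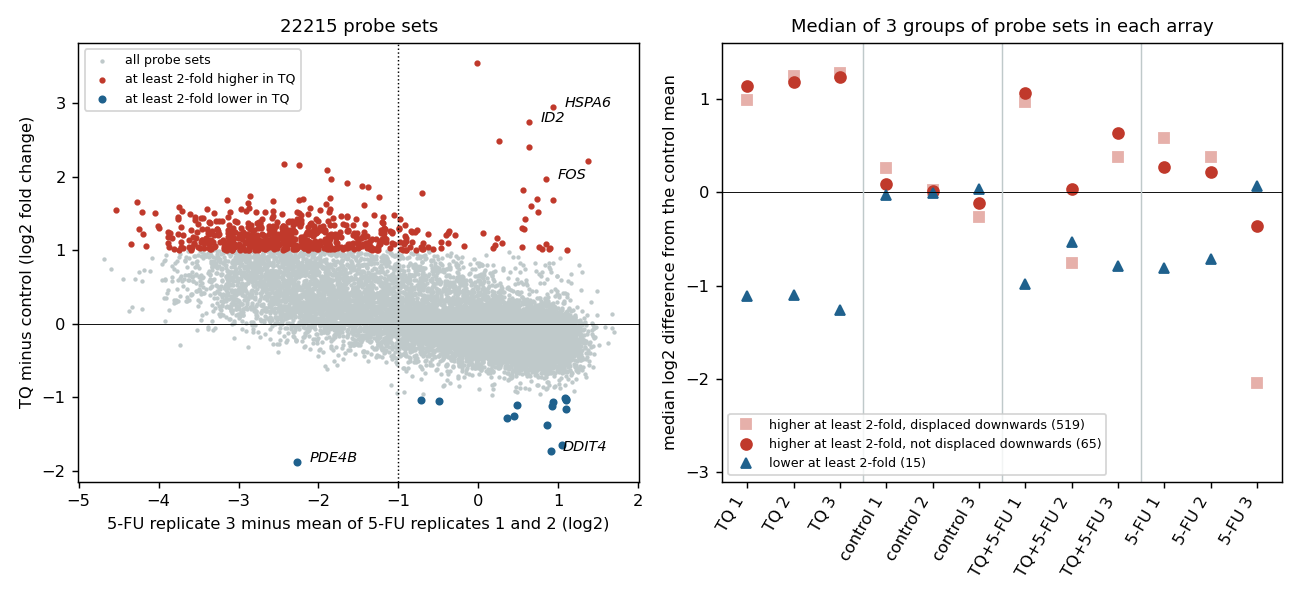
Left, TQ minus control (log2) against the displacement of 5-FU replicate 3 from its replicates (log2) for 22215 probe sets, with those at least 2-fold higher or lower in TQ coloured; right, the median difference from the control mean (log2) of 3 groups of probe sets in each of the 12 arrays. The 519 displaced probe sets are high in the TQ arrays and in TQ+5-FU replicate 1, and lowest in 5-FU replicate 3, whereas the 15 that fell are low in all TQ arrays.

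The steepest rise belonged to a probe set whose annotation names several genes, so no gene is given for it. Its signals were 6.85, 7.08 and 6.83 in TQ cells, against 3.25, 3.45 and 3.41 in control cells, a difference of 3.55 (adjusted p = 9.9e-07), and it was not displaced (-0.01). Among probe sets of a single gene HSPA6 rose most. HSPA6 encodes an HSP70 chaperone that is nearly silent until cells are stressed. Its signals were 8.29, 8.23 and 7.98 in TQ cells, against 5.17, 5.33 and 5.16 in control cells. The groups lay far apart, with a difference of 2.95 ± 0.10 (SE, adjusted p = 2.4e-06), and the other probe set of the gene rose as well. HSPA6 was not displaced (0.93). It is a close relative of other HSP70 genes, and how far its probes also bind their transcripts was not tested.

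Heat shock and chaperone genes moved in 1 direction only among those that passed. Of 33 measured, 14 rose (42.4%) and 0 fell by limma, against 15.1% and 15.9% of all genes; 17 had an unadjusted p under 0.05, and 13 passed the methods' t-test. Their median was 0.19, and 6 of the 14 were not displaced. By family, 6 of 7 HSP70 and HSP110 genes, 3 of 7 HSP40 genes, 3 of 10 cochaperones and factors and 2 of 4 HSP90 and chaperonin genes rose. HSPH1, the HSP110 that recharges HSP70 with ATP, had 10.49, 10.65 and 10.65 in TQ cells, against 9.03, 8.98 and 8.69 in control cells, a difference of 1.70 ± 0.11 (adjusted p = 8.5e-05); it was displaced (-2.19). CLU, a secreted chaperone, had 11.25, 11.20 and 11.05 in TQ cells, against 9.71, 9.74 and 9.79 in control cells, a difference of 1.42 (adjusted p = 7.2e-05), with both other probe sets rising and no displacement (0.59). BAG3, the cochaperone that hands HSP70 clients to autophagy, rose by 0.60 and was not displaced (0.60). The HSP40 genes DNAJB4 (1.20) and DNAJA1 (1.05), the HSP110 relative HSPA4L (1.12) and the HSP90 cochaperone CHORDC1 (1.05) all rose about 2-fold and all were displaced, between -2.59 and -3.72. HSPA2, an HSP70 gene of germ cells, rose by 0.72 and was not displaced (0.73). DNAJB1, the HSP40 partner of HSP70, rose by 0.26 (adjusted p = 0.032), and HSP90AA1, the inducible HSP90, by 0.43 (adjusted p = 0.031) with displacement (-1.89).

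Other arms of the heat shock response showed less. The mitochondrial chaperones HSPA9 (0.60) and HSPD1 (0.46) rose, both displaced, whereas HSPE1, the partner of HSPD1 in the chaperonin, had -0.09 (adjusted p = 0.38). Of 5 small heat shock protein genes, 0 passed by limma or by the methods' t-test, and 1 had an unadjusted p under 0.05. HSPB1, a small heat shock protein already bright in these cells, had 12.48, 12.27 and 12.28 in TQ cells, against 12.34, 12.34 and 12.49 in control cells, and the groups overlapped. The gene of HSF1 itself had a difference of -0.15 (adjusted p = 0.22).

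Heat shock elements were looked for in the promoters of these genes, since the list holds members that rose and members that did not. Each promoter ran from 250 bases before to 50 bases after the first listed start of the gene (RefSeq, GRCh38.p14), and the motif searched, on both strands, was that of GAA, TTC and GAA with 2 bases between neighbours. It occurs in 0.376% of the 9563 measured genes that have a promoter in the table, and in 5 of 28 heat shock genes (17.9%). The following lines give 3 of the 5, a gene that rose without displacement, a gene that rose with it and a gene that did not pass, with the motif in capitals; each run is 90 bases, 5′ to 3′ on the strand of the gene.
HSPA6, chr1:161524425-161524514, plus strand: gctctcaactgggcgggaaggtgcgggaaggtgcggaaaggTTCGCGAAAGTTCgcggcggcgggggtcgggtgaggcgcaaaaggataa
CHORDC1, chr11:90223075-90223164, minus strand: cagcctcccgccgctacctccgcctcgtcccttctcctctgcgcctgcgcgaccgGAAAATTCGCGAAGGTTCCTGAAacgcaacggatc
SERPINH1, chr11:75562138-75562227, plus strand: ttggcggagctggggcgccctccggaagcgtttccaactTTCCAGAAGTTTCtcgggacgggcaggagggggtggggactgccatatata
In HSPA6 and SERPINH1 the match is on the opposite strand and starts 74 and 76 bases before the start site. In CHORDC1 there are 3 overlapping matches, the first 60 bases before it. DNAJA1 and DNAJB6 hold the other matches, 3 bases after and 131 bases before the start. Of these 5 genes, HSPA6, CHORDC1 and DNAJA1 rose, whereas SERPINH1, a collagen chaperone of the ER, had -0.09 (adjusted p = 0.58) and DNAJB6 0.14 (adjusted p = 0.26). The motif was thus present both in genes that rose and in genes that did not pass. A match is a description of letters and not a bound site.

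**Figure D2:**
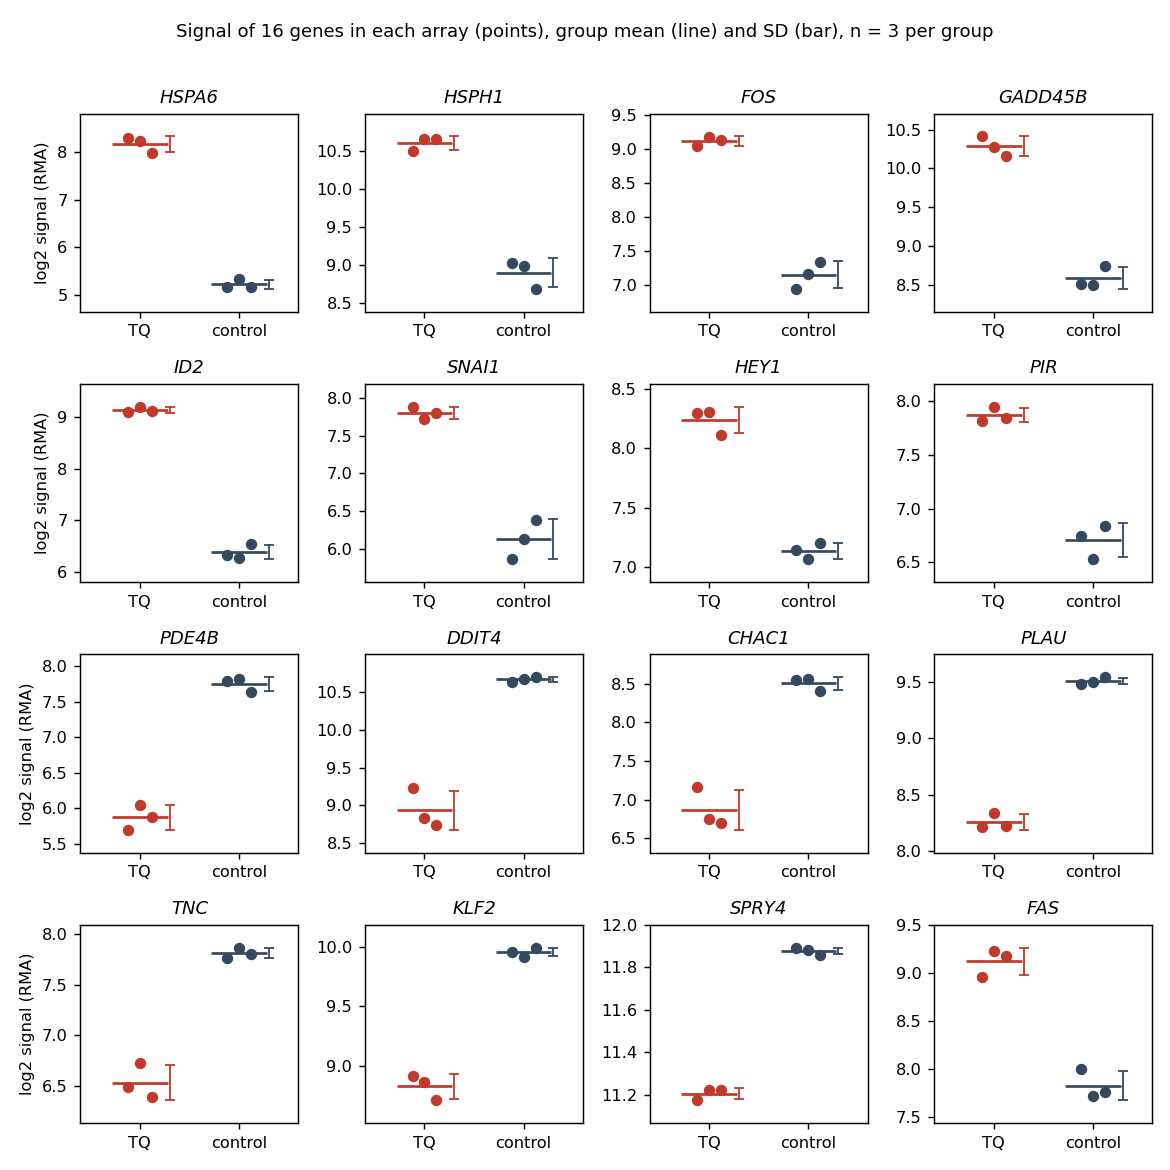
Log2 signal (RMA) of 16 genes in each TQ array and each control array, with the group mean as a line and the SD as a bar (n = 3 per group). In each panel the TQ arrays lie on 1 side of the control arrays, for instance 7.98 to 8.29 against 5.16 to 5.33 for HSPA6, and 8.74 to 9.23 against 10.64 to 10.69 for DDIT4.

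Immediate early genes, which answer a stimulus without new protein synthesis, split by family. Of 35 measured, 11 rose and 6 fell (31.4% and 17.1%, against 15.1% and 15.9% of all genes), and 9 of the 11 were not displaced. FOS, a subunit of the AP-1 factor, had 9.05, 9.18 and 9.13 in TQ cells, against 6.94, 7.17 and 7.34 in control cells. Its TQ arrays lay within 0.2 of each other and well above the controls, a difference of 1.97 ± 0.11 (adjusted p = 6.0e-05). FOSB rose by 0.80 (adjusted p = 0.00089), and MAFF (0.90) and ATF3 (0.80), basic leucine zipper factors of stressed cells, rose too; none of these was displaced. JUN, the partner of FOS in AP-1, was bright in both groups and fell by 0.21 (adjusted p = 0.048), and 2 of its other 3 probe sets fell by 0.52 each. ATF2, a partner of JUN, rose by 0.87 and was displaced (-1.70). EGR1, an early gene of growth factor signalling, had 0.15 (adjusted p = 0.20), and of 6 EGR and NR4A genes 0 passed by limma or the methods' t-test, with 1 at an unadjusted p under 0.05.

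ARC, an early gene best known from neurons, had 7.54, 7.53 and 7.37 in TQ cells, against 4.75, 5.63 and 5.43 in control cells. The controls were scattered, with control replicate 1 low, but no control came near the TQ arrays, and the difference was 2.21 ± 0.20 (adjusted p = 0.00030). ARC was not displaced, and 5-FU replicate 3 lay 1.37 above its replicates. Krüppel-like factors moved in opposite directions. KLF4, a factor of epithelial differentiation, had 9.09, 9.15 and 9.06 in TQ cells, against 8.09, 8.14 and 8.02 in control cells, and rose by 1.02 (adjusted p = 0.00018). KLF2, in contrast, had 8.92, 8.87 and 8.72 in TQ cells, against 9.96, 9.92 and 9.99 in control cells, and fell by 1.12 (adjusted p = 0.00017). KLF10, induced by TGF-beta, rose by 0.66, and KLF6 fell by 0.42. Further early genes that rose were SGK1 (1.12, displaced by -1.23), the kinase induced by serum and steroids, and IER5 (0.74, not displaced), which modulates HSF1.

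GADD45B, a stress sensor that activates p38 and JNK signalling, had 10.41, 10.28 and 10.16 in TQ cells, against 8.52, 8.50 and 8.75 in control cells. The difference was 1.69 ± 0.10 (adjusted p = 7.2e-05), and its other 3 probe sets rose too. GADD45A, of the same family, rose by 0.55 (adjusted p = 0.0013). Neither was displaced.

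ID2 was the second steepest rise among the genes. ID proteins lack a DNA-binding domain and hold basic helix-loop-helix factors inactive, and they are classical targets of BMP signalling. ID2 had 9.10, 9.20 and 9.12 in TQ cells, against 6.34, 6.28 and 6.55 in control cells, a difference of 2.75 ± 0.09 (adjusted p = 2.4e-06). ID1 and ID3 each rose by 0.82 (adjusted p = 0.0017 and 0.0012), so 3 of the 4 ID genes passed and none of these was displaced. The rest of the TGF-beta and BMP list did not follow. Over all its 34 genes 6 rose and 9 fell (17.6% and 26.5%, against 15.1% and 15.9% of all genes), with a median of -0.11. BAMBI, a decoy receptor, rose by 0.66. TGFB1, a ligand, fell by 0.39, ACVR1B, a type I receptor, by 0.70, and SMURF1, a ubiquitin ligase for SMADs, by 0.60.

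Among EMT and Notch genes SNAI1, HEY1 and HES1, which encode repressors, rose. SNAI1, which represses E-cadherin in the epithelial-mesenchymal transition (EMT), had 7.88, 7.72 and 7.81 in TQ cells, against 5.86, 6.13 and 6.39 in control cells. The difference was 1.68 ± 0.13 (adjusted p = 0.00019), larger than the spread of the controls, and SNAI1 was not displaced (0.94). ZEB1, a second EMT factor, rose by 0.50 (adjusted p = 0.022), but its controls ranged between 9.45 and 10.04, and the call was lost without any 1 of the TQ arrays or without control replicate 2. Its other probe sets rose by 1.04 (adjusted p = 0.0012) and 0.62 (adjusted p = 0.014), both displaced. Among 31 genes of EMT and epithelial identity 6 rose and 2 fell (19.4% and 6.45%, against 15.1% and 15.9% of all genes). Their median of -0.05 was near that of all genes. Both HEY1 and HES1, repressors induced by Notch, rose, and neither was displaced. HEY1 had 8.30, 8.31 and 8.12 in TQ cells, against 7.15, 7.07 and 7.20 in control cells, a difference of 1.10 ± 0.09 (adjusted p = 0.00021). HES1 rose by 1.03 (adjusted p = 0.00076); of its other probe sets 1 rose, and 1 that is very dim had a negative difference that did not pass. The other 3 Notch targets did not pass, and of 4 Notch receptors 3 fell. Over all 21 measured genes of the Notch pathway 4 rose and 5 fell (19.0% and 23.8%, against 15.1% and 15.9% of all genes). JAG1, a Notch ligand, had -0.19 (adjusted p = 0.14); of its other 3 probe sets 1 fell, by 0.40 (adjusted p = 0.0048).

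Of 40 NRF2 targets measured, 9 rose and 2 fell (22.5% and 5.00%, against 15.1% and 15.9% of all genes), 29 did not pass, and 4 of the 9 were not displaced; the median was 0.10. PIR, an iron-binding nuclear protein induced by NRF2, changed most, with 7.82, 7.95 and 7.84 in TQ cells, against 6.75, 6.53 and 6.84 in control cells, a difference of 1.17 ± 0.10 (adjusted p = 0.00025). HMOX1, the haem-degrading enzyme that is a common marker of electrophile stress, rose by 0.68 (adjusted p = 0.0031). NQO1, which reduces quinones such as TQ by 2 electrons, rose by 0.64 (adjusted p = 0.00086), and its other 2 probe sets rose too. TXNRD1 (0.47) and GCLM (0.40), of the thioredoxin and glutathione systems, rose as well, GCLM with adjusted p = 0.027. PIR, HMOX1, NQO1 and GCLM were not displaced; TXNRD1 was (-2.41). The gene of NRF2 (NFE2L2) rose by 0.62 and that of its competitor BACH1 by 1.00, both displaced, and KEAP1 fell by 0.37 (adjusted p = 0.016). IDH1, a source of NADPH, and UGDH, of glucuronide synthesis, rose by 0.69 and 0.55, both displaced, whereas the exporter ABCC1 fell by 0.49. The 9 metallothioneins, which answer zinc and heavy metals, gave 0 calls by limma, with 1 at an unadjusted p under 0.05 and 1 by the methods' t-test.

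Genes downstream of ATF4 fell more often than they rose. Of 50 genes of the integrated stress response 24 fell (48.0%) and 10 rose (20.0%), against 15.9% and 15.1% of all genes, and the median was -0.24. DDIT4, which inhibits mTORC1, had 9.23, 8.84 and 8.74 in TQ cells, against 10.64, 10.67 and 10.69 in control cells. The controls lay within 0.1 of each other and the highest TQ array was far below them, with a difference of -1.73 ± 0.12 (adjusted p = 0.00015). CHAC1, which degrades glutathione, had 7.16, 6.74 and 6.69 in TQ cells, against 8.55, 8.56 and 8.41 in control cells, a difference of -1.64 ± 0.12 (adjusted p = 0.00019). ATF4 itself, which is controlled mainly at translation, had 12.67, 12.53 and 12.53 in TQ cells, against 13.21, 13.15 and 13.19 in control cells, and fell by 0.61 (adjusted p = 0.00098). Its dimerization partners CEBPG and CEBPB fell by 0.55 and 0.39.

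Some enzymes and carriers of amino acids fell. Among 10 genes of amino acid synthesis 6 fell and 1 rose, PHGDH (-0.61), PSPH (-0.49) and PSAT1 (-0.45) forming the serine pathway. Among 8 amino acid carriers 4 fell and 0 rose by limma (4 at an unadjusted p under 0.05, 3 by the methods' t-test). SLC1A4, a carrier of neutral amino acids, fell by 0.82, SLC7A1, of cationic ones, by 0.62, and SLC7A5, of large neutral ones, by 0.59. The 11 aminoacyl-tRNA synthetases, which charge tRNAs, were split: YARS1 (-0.53), WARS1 (-0.51), CARS1 (-0.46), AARS1 (-0.35) and SARS1 (-0.33) fell, and NARS1 (0.89), TARS1 (0.82), EPRS1 (0.73), IARS1 (0.63) and LARS1 (0.61) rose. Of the 5 that rose, 4 were displaced, LARS1 being the exception (-0.53), and of the 5 that fell none was. Other genes of these lists rose. DDIT3 (CHOP), the factor of lasting ER stress, rose by 0.60 (displaced by -1.61), and EIF2AK3 (PERK), the ER kinase that phosphorylates eIF2 alpha, had 7.58, 7.95 and 7.87 in TQ cells, against 6.63, 6.87 and 6.56 in control cells, a rise of 1.11 (displaced by -2.44). In the 26 genes of the unfolded protein response 8 rose and 4 fell (30.8% and 15.4%, against 15.1% and 15.9% of all genes). Of the 8, 2 were not displaced.

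ERK output and feedback genes fell more often than they rose. RKO cells carry mutant BRAF, and Sprouty, SPRED and dual-specificity phosphatase genes are switched on by ERK and restrain it. Of 25 genes of ERK output and feedback 10 fell (40.0%, against 15.9% of all genes) and 1 rose (15.1% of all genes rose), with a median of -0.18. SPRY4 had 11.17, 11.22 and 11.22 in TQ cells, against 11.89, 11.88 and 11.86 in control cells, a difference of -0.67 ± 0.07 (adjusted p = 0.00057). SPRED2 fell by 0.60, the ETS factors ETV5 and ETS1 by 0.58 and 0.48, and the ERK phosphatase DUSP5 by 0.44. DUSP6, the phosphatase most often read as a measure of ERK output, had -0.15 (adjusted p = 0.26), and CCND1, encoding cyclin D1, had -0.26 (adjusted p = 0.062), though its other probe set fell by 0.27 (adjusted p = 0.034). MYC fell by 0.36 (adjusted p = 0.0054), with 12.43 in each TQ array, against 12.82, 12.76 and 12.81 in the control arrays. MNT, which competes with MYC for its partner MAX, fell by 1.01.

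**Figure D3:**
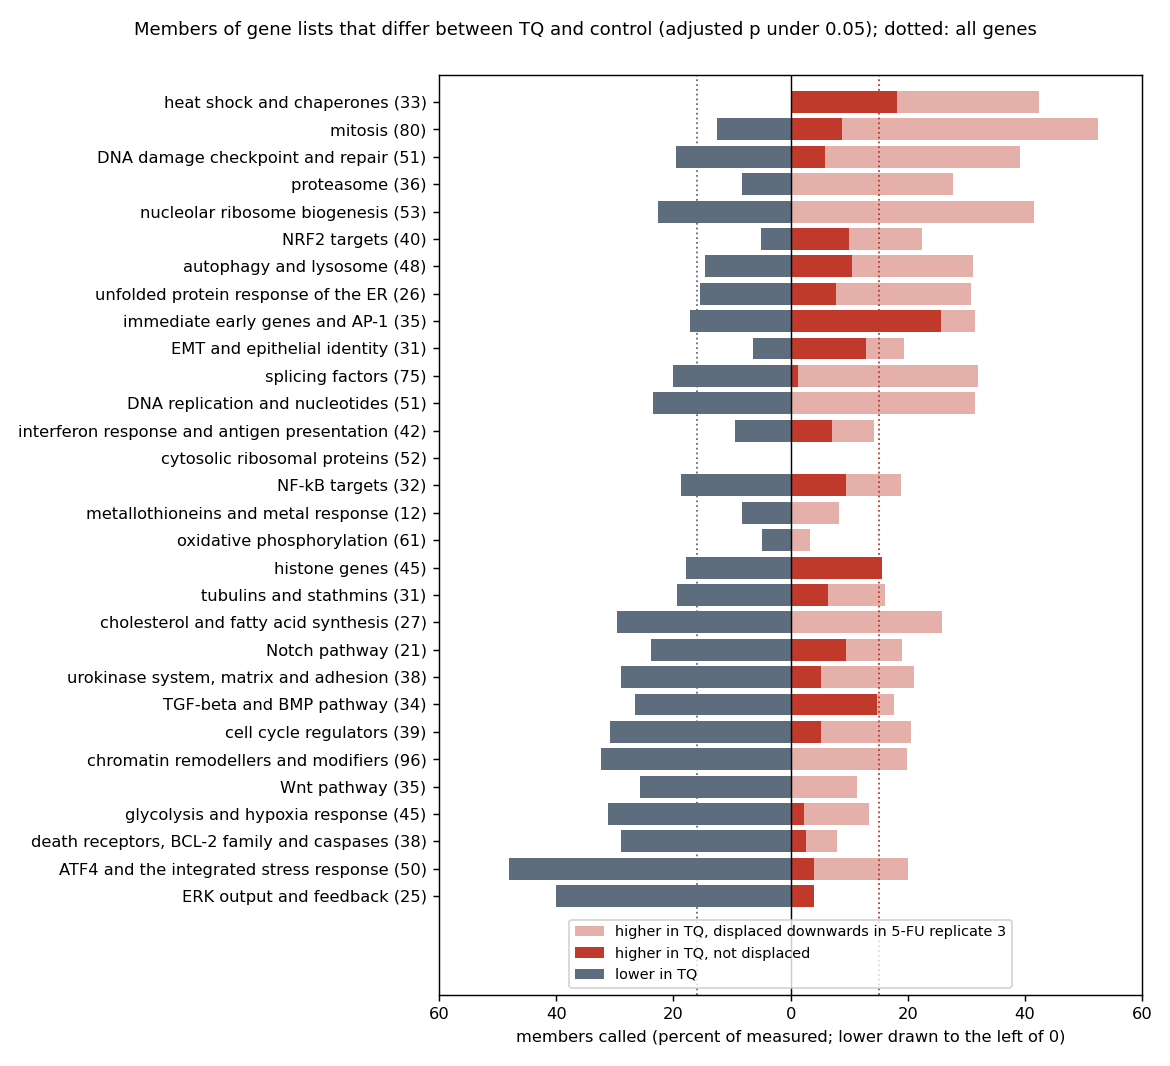
Percent of the measured members of 30 gene lists that were higher (right of 0) or lower (left of 0) in TQ cells than in control cells at an adjusted p under 0.05, with displaced rises in the light colour and the share over all genes as dotted lines. Heat shock genes show rises only, ERK and ATF4 genes mostly falls, and most of the mitosis and all of the ribosome biogenesis rises are displaced.

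The steepest fall of all was that of PDE4B, a phosphodiesterase that degrades cyclic AMP. It had 5.70, 6.05 and 5.88 in TQ cells, against 7.79, 7.82 and 7.63 in control cells, a difference of -1.87 ± 0.10 (adjusted p = 6.2e-05). Another probe set fell by 1.05, and 1 near the floor of the array had -0.19. PDE4B was displaced (-2.27), so it was low in the TQ arrays and in 5-FU replicate 3 alike. Some regulators of G proteins and small GTPases rose. RGS2, which turns off Gq, had 9.63, 9.92 and 9.94 in TQ cells, against 7.82, 7.61 and 7.52 in control cells, a difference of 2.18 (adjusted p = 4.7e-05). RGS20, a second member of the family, rose by 2.17, RND3, an atypical small GTPase that opposes ROCK1, by 1.91, and ARAP2, a GTPase-activating protein for ARF, by 1.88. All 4 were displaced, between -1.46 and -2.43. Further displaced rises of this size were ZNF302 (2.10), MAP3K8 (1.86), a kinase upstream of MEK, MYBL1 (1.73), a MYB factor, and SERPINI1 (1.72), a protease inhibitor. USPL1, a SUMO protease, rose by 1.78 and lay just inside the limit (-0.70).

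In the urokinase system, matrix and adhesion 11 of 38 genes fell and 8 rose (28.9% and 21.1%, against 15.9% and 15.1% of all genes), with 2 of 4 urokinase and 2 of 10 matrix genes among the falls. PLAU, which encodes urokinase, had 8.22, 8.34 and 8.22 in TQ cells, against 9.49, 9.50 and 9.54 in control cells. The groups were tight and far apart, with a difference of -1.25 ± 0.08 (adjusted p = 7.8e-05), and the other probe set fell too. Its receptor PLAUR fell by 0.24 (adjusted p = 0.037). TNC, a matrix glycoprotein, had 6.48, 6.72 and 6.39 in TQ cells, against 7.77, 7.87 and 7.81 in control cells, a difference of -1.28 ± 0.10 (adjusted p = 0.00021), while a dim second probe set did not pass. MMP10, a stromelysin, rose by 1.03, though at a low signal of 5.23 to 5.31 in TQ cells, against 4.18 to 4.39 in control cells, and the integrin ITGAV by 1.30; both were displaced. Other genes among the 15 steepest falls were CAMK2N1 (-1.11), an inhibitor of CaMKII, FRAT1 (-1.03), which frees beta-catenin from GSK3, TUBAL3 (-0.97), an alpha-tubulin relative, SOX9 (-0.96), a factor of intestinal crypt cells, CCNG2 (-0.93), a cyclin of arrested cells, MSN (-0.92), which links actin to the membrane, LAIR2 (-0.92), a soluble collagen receptor, and TBL1X (-0.89), a corepressor subunit.

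CDKN1A, an inhibitor of cyclin-dependent kinases, had 10.78, 10.49 and 10.50 in TQ cells, against 10.62, 10.67 and 10.73 in control cells, and the groups overlapped (-0.08, adjusted p = 0.55). MDM2, a ubiquitin ligase, rose by 0.77 on the probe set read, but of its 4 others 2 rose and 2 had the opposite sign. TIGAR (0.66) and PLK2 (0.82) rose, both displaced, and GDF15 (-0.57), a stress cytokine, and DDB2 (-0.45), of nucleotide excision repair, fell. FAS, the death receptor, had 8.96, 9.23 and 9.17 in TQ cells, against a mean of 7.83 ± 0.15 (SD) in control cells, a difference of 1.30 ± 0.11 (adjusted p = 0.00025). Its other 3 probe sets rose too, and it was displaced (-3.27).

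The list of cell death genes, which holds members that promote death and members that block it, had more falls than rises. Of 38 death receptors, BCL-2 family members and caspases 3 rose and 11 fell (7.89% and 28.9%, against 15.1% and 15.9% of all genes). The falls were 4 of 12 receptors and adaptors, 2 of 10 genes of caspases and the apoptosome, 2 of 11 promoting BCL-2 members and 3 of 5 blocking ones. The 3 that rose were FAS, CASP4 (0.98, displaced), an inflammatory caspase whose other probe set had 0.08 (adjusted p = 0.61), and BCL2L11 (0.59, not displaced), which encodes BIM. BAX, a pore-forming member, had 8.10, 7.82 and 7.50 in TQ cells, against 8.65, 8.58 and 8.71 in control cells, and fell by 0.84 (adjusted p = 0.0024). TNFRSF10B, the TRAIL receptor DR5, fell by 0.29 and the survival gene BCL2L1 by 0.40. NF-kB targets were even, with 6 rising and 6 falling of 32 (18.8% each, against 15.1% and 15.9% of all genes), and NFKB1 fell by 0.36. CYLD (1.31), a deubiquitinase that restrains NF-kB, BIRC2 (1.33), the ubiquitin ligase cIAP1, FZD6 (1.18), a Wnt receptor, and STK3 (1.06), the Hippo kinase MST2, rose with displacements between -2.44 and -3.88. The size for CYLD rests on the probe set read, since its 6 others had 0.02 to 0.60 and 3 of them passed. The 4 genes belong to the 9 genes of the study's own account that were read here. All 9 rose 2-fold, but the study chose them on these arrays, and 7 of the 9 were displaced, FOS and ID2 being the exceptions. In the study's RT-qPCR, CYLD, EIF2AK3, ID2 and STK3 showed no significant difference from control with TQ alone. Its Western blot likewise found no significant change of Fas protein with TQ alone.

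Genes of proliferation rose mainly where they were displaced. Of 80 mitosis genes 42 rose and 10 fell (52.5% and 12.5%, against 15.1% and 15.9% of all genes). However, 46 of the 80 were displaced, against 17.8% of all probe sets, and only 7 of the 42 rises were not. BUB1, a checkpoint kinase, had 8.79, 8.93 and 8.96 in TQ cells, against 7.90, 7.81 and 7.53 in control cells, a difference of 1.15 (displaced by -2.85). Of its 4 other probe sets 1 rose and 1 had the opposite sign. HMMR (1.26) of the spindle, the checkpoint kinase TTK (1.16) and ZWILCH of the kinetochore (2.84-fold) rose as well, between -1.10 and -4.05 in displacement. PLK1, the kinase of mitotic entry, was not displaced and fell by 0.29 (adjusted p = 0.041). CCNE2, a cyclin of S phase entry, rose by 1.59 (displaced by -3.75). Of 53 ribosome biogenesis factors 22 rose and 12 fell (41.5% and 22.6%), and of 75 splicing factors 24 and 15 (32.0% and 20.0%). Of 51 genes of DNA replication 16 rose and 12 fell (31.4% and 23.5%). Chromatin modifiers fell more often than they rose, 31 against 19 of 96 (32.3% and 19.8%). Among these 4 lists 1 rise, of a splicing factor, was not displaced. RIOK2 (1.26) and HEATR1 (1.20), of ribosomal subunit assembly, CLK1 (1.64) and CLK4 (1.28), kinases of splicing factors, the remodeller CHD1 (1.12) and the demethylase KDM3A (1.05) were among the rises, and all 6 were displaced. FBL, the methyltransferase of ribosomal RNA, was not displaced and had -0.20 (adjusted p = 0.066). In DNA damage signalling 20 of 51 genes rose and 10 fell (39.2% and 19.6%, against 15.1% and 15.9% of all genes); ATR (1.11) and CHEK1 (0.99) were among the rises, both displaced.

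Histone genes differed from these lists in that none of the 45 measured was displaced. Of them 7 rose and 8 fell, near the shares of all genes. H3C2 had 6.88, 6.52 and 6.57 in TQ cells, against 5.42, 5.39 and 5.23 in control cells, a rise of 1.31 ± 0.11 (adjusted p = 0.00025), and H4C8 (0.91) and H2BC12 (0.80) rose too. Most transcripts of replication-dependent histones lack a poly-A tail, and labelling from oligo-dT reads only those that carry one.

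Lists of metabolism and protein turnover differed from each other. Their counts stand beside 15.1% of all genes that rose and 15.9% that fell. Of 22 glycolysis genes 9 fell and 1 rose. SLC2A1, the glucose transporter GLUT1, fell by 0.58 (adjusted p = 0.0041), and NDRG1, a hypoxia and stress gene, by 0.88, whereas HIF1A rose by 0.88 (displaced by -2.42). Of 27 genes of cholesterol and fatty acid synthesis 7 rose and 8 fell; HMGCS1 rose by 1.24 (displaced) and its regulator SREBF1 fell by 0.45. Oxidative phosphorylation gave 2 rises, NDUFS1 (0.66, displaced) among them, and 3 falls, SDHA (-0.35) among them, in 61 genes. The 52 cytosolic ribosomal protein genes gave 0 calls by limma, 0 at an unadjusted p under 0.05 and 0 by the methods' t-test, with differences between -0.05 and 0.17. In the proteasome 10 of 36 genes rose, PSMC2 (0.78) among them, and 3 fell (27.8% and 8.33%, against 15.1% and 15.9% of all genes). In autophagy and the lysosome 15 of 48 rose, TAX1BP1 (1.32) among them, and 7 fell (31.2% and 14.6%). The proteasome rises were all displaced. Interferon-stimulated and antigen presentation genes (42) gave 6 rises, IFIT5 (1.12, displaced) among them, and 4 falls, BST2 (-0.66, adjusted p = 0.016) among them.

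The effect of TQ was read a second time in cells that also held 5-FU, on arrays that share none with the comparison above. TQ+5-FU cells differed from 5-FU cells in 164 probe sets (0.738%), 85 higher (0.383%) and 79 lower (0.356%), and in 1362 (6.13%; 3.25% higher and 2.88% lower) without the pair of arrays that stand apart. Of the 599 probe sets that changed 2-fold with TQ alone, 569 had the same sign in 5-FU cells, but 19 of them passed. Without the pair of arrays 462 had the same sign and 66 passed. Of the 584 that rose with TQ alone, 558 were positive in 5-FU cells, against 40.3% of all probe sets, and without the pair 450 were, against 46.0%.

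Some of the genes that rose without displacement rose again. Of the lists, 2 of 33 heat shock genes, 4 of 35 immediate early genes and 0 of 40 NRF2 targets rose in TQ+5-FU cells on 12 arrays. Of all probe sets 0.383% were higher there. Without the pair of arrays 6, 12 and 3 rose and 0, 2 and 2 fell, against 3.25% and 2.88% of all probe sets. These counts include genes that had not risen with TQ alone, such as 2 EGR and NR4A genes among the 12. FOS (0.97, adjusted p = 0.087) and ARC (1.45, adjusted p = 0.14) did not pass on 12 arrays. HSPA6 had 8.97, 9.49 and 8.78 in TQ+5-FU cells, against 5.77 and 6.38 in 5-FU replicates 1 and 2 and a higher signal in replicate 3, still below every TQ+5-FU array; the difference was 2.70 (adjusted p = 0.0035). SNAI1 had 8.43, 8.91 and 8.41 in TQ+5-FU cells, against 6.30, 6.58 and 7.38 in 5-FU cells, and rose by 1.83 (adjusted p = 0.013). GADD45B (1.54, adjusted p = 0.0093), ID2 (1.51, adjusted p = 0.0046) and CLU (0.91, adjusted p = 0.033) rose as well. KLF4, HEY1 and H3C2 had larger differences than with TQ alone. KLF4 had 9.92, 10.26 and 9.76 in TQ+5-FU cells, against 7.11, 7.15 and 7.93 in 5-FU cells, a difference of 2.58 (adjusted p = 0.00078). HEY1 had 1.94 (adjusted p = 7.4e-05) and H3C2 2.99 (adjusted p = 0.0023). On 12 arrays the test of the difference between the effects gave adjusted p = 0.099 for KLF4 and HEY1 and 0.22 for H3C2, so the larger size is not shown there. In that test 0 of the 7 early genes grouped with the Krüppel-like factors had a more positive effect. Without the pair of arrays 4 had, against 5.90% of all genes. PLAU fell again, by 0.90 (adjusted p = 0.032). FAS had 10.81, 9.18 and 10.29 in TQ+5-FU cells, against 11.34, 11.13 and 7.97 in 5-FU cells. The third 5-FU array and the second TQ+5-FU array were the low ones, so that FAS differed by -0.05 with all arrays and by -0.69 (adjusted p = 0.040) without that pair.

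Some ATF4 genes moved in the opposite direction when 5-FU was present. The effect in 5-FU cells differed from that of TQ alone in 20 genes (0.167%) of 11963, more positive in 16 (0.134%) and more negative in 4 (0.0334%), and 6 of these were among the 50 genes of the integrated stress response. They were ATF4, CHAC1, CEBPG, YARS1, AARS1 and CARS1. ATF4 had 12.68, 12.80 and 12.66 in TQ+5-FU cells, against at most 12.18 in 5-FU cells, so that it was higher by 0.64 with 5-FU present and lower by 0.61 without (difference of 1.25, adjusted p = 0.031). CHAC1 had 7.87, 8.49 and 8.01 in TQ+5-FU cells, against 6.66, 6.42 and 7.59 in 5-FU cells, a difference of 1.24 (adjusted p = 0.089), against -1.64 without 5-FU; these differed by 2.88 (adjusted p = 0.032). Of the 50 genes, 5 rose in TQ+5-FU cells on 12 arrays. DDIT4, the steepest fall among them with TQ alone, had 0.14 (adjusted p = 0.81). Without the pair of arrays that stand apart the effects differed in 1325 genes (11.1%), and 22 of the 50 had a more positive effect of TQ in 5-FU cells and 3 a more negative one, against 5.90% and 5.17% of all genes. In that fit the carrier SLC7A5 rose by 0.95 (adjusted p = 0.0015) in TQ+5-FU cells. This contrast uses the TQ and control arrays a second time, so it is not independent of the falls given above.

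Of 32 NF-kB targets, 3 had a more negative effect of TQ in 5-FU cells, namely TRAF1, TNFAIP3 and EBI3, and 0 a more positive one. TRAF1, an adaptor of TNF receptors, had 6.64, 6.36 and 6.47 in TQ cells, against 5.99, 5.63 and 6.04 in control cells, and rose by 0.60 (adjusted p = 0.0069). It had 6.91, 7.38 and 7.30 in TQ+5-FU cells, against 9.47, 9.44 and 10.50 in 5-FU cells, and fell by 2.61 (adjusted p = 0.0035); the effects differed by -3.20 (adjusted p = 0.031). TNFAIP3, the NF-kB inhibitor A20, rose by 0.50 with TQ alone and fell by 0.70 when 5-FU was present. EBI3, a cytokine subunit, did not change direction, with -0.35 (adjusted p = 0.059) with TQ alone and -3.00 when 5-FU was present.

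**Figure D4:**
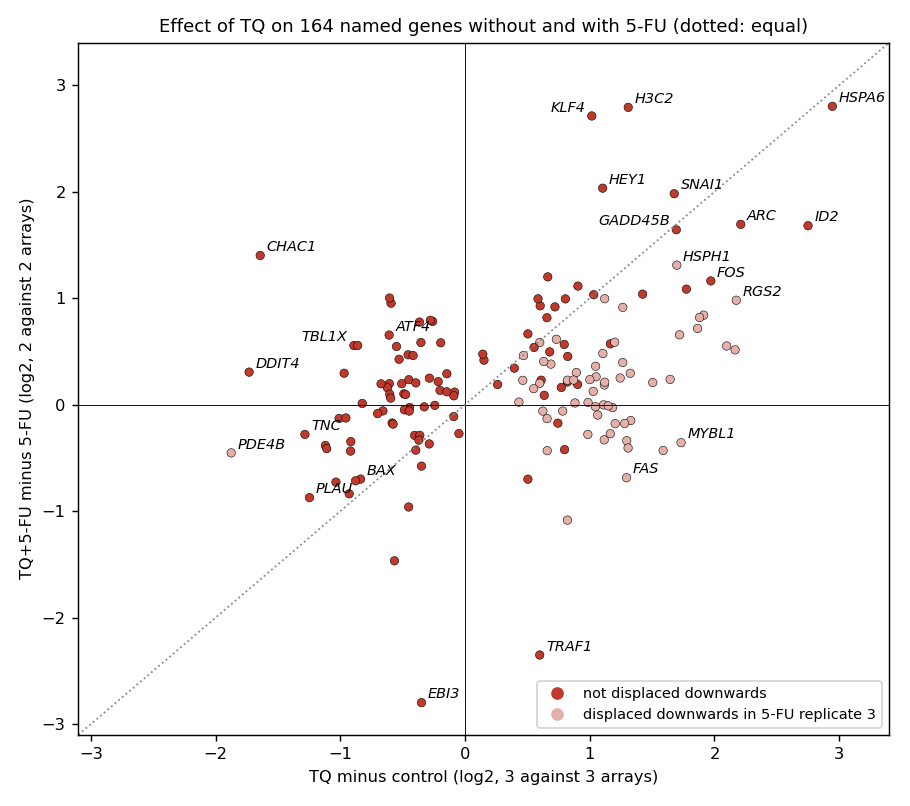
Difference between TQ+5-FU and 5-FU cells (log2, 2 against 2 arrays, without the pair that stands apart) against the difference between TQ and control cells (log2, 3 against 3 arrays) for 164 genes, with displaced genes in the light colour and equality as a dotted line. HSPA6, SNAI1 and GADD45B lie near the line, CHAC1 and ATF4 above 0 on the vertical axis although below 0 on the horizontal one, and TRAF1 far below.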

How the data were processed

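RNA of RKO cells was measured on Affymetrix human 3′ expression arrays. The deposited values are log2 signals to which the authors had applied RMA, and they were used without further scaling. The study's methods name GeneSpring GX for this step and the submitters' processing notes Affymetrix Expression Console. Of 22277 rows, 62 control probe sets were left out. TQ and control arrays were compared with limma 3.58.1 in R 4.3.3 on these 6 arrays alone, two-sided, with Benjamini-Hochberg adjustment over 22215 probe sets and a threshold of 0.05. The effect of TQ in 5-FU cells, and its difference from that of TQ alone, came from limma on all 12 arrays. With 3 arrays against 3 no exact test can go below 0.1, so none was used. A gene was read from its brightest probe set among the 19064 annotated to it alone. The procedure was tested on simulated data. Some lists are not reported here. Lists were described by counts and medians without a test. Figures were drawn with matplotlib 3.10.9 in Python 3.11.15.

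The members and the lists were chosen with earlier results of these data known. Genes were named by a rule: the 15 largest rises and falls whose arrays do not overlap, the 10 smallest p-values, up to 4 members of each list and its lead gene, and the genes of the study's own account. Of the 164 genes followed, 66 fall outside the rule and were chosen after their values were seen. Displacement in 5-FU replicate 3 was defined after the data had been seen. Alternatives were all 12 arrays, other scalings, filters on dim probe sets, the methods' t-test and ANOVA, array weights, another variance prior, a replicate block, single arrays left out and, chosen after seeing the data, a covariate for the displacement and a filter on it.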

Additional observations from a re-analysis of the deposited data

Results flagged for a closer look

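For 14 of the genes followed here (20 of all genes) the effect of TQ with 5-FU present (TQ+5-FU minus 5-FU) differed from its effect alone (TQ minus control) at an adjusted p under 0.05 by limma on 12 arrays. It was more positive by 2.88 for CHAC1, 1.46 for PTCH1, 1.38 for TBL1X, 1.33 for TUBAL3, 1.30 for GRB10, 1.25 for ATF4, 1.21 for CEBPG, 1.08 for SOX4, 1.03 for YARS1, 0.98 for AARS1 and 0.97 for CARS1. These 11 fell with TQ alone and were positive with 5-FU present. It was more negative by -3.20 for TRAF1, -2.65 for EBI3 and -1.21 for TNFAIP3. For all 14 the test is that of the difference itself, and 5-FU replicate 3 and TQ+5-FU replicate 2 enter it.

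Among the array controls left out of the tests, the probe set for the middle of 28S ribosomal RNA gave a signal that differed between the groups. It had 12.56, 12.42 and 12.45 in TQ cells, against 10.61, 10.91 and 10.98 in control cells, a difference of 1.64 with no overlap. Labelling starts from poly-A tails, which ribosomal RNA mostly lacks. The probe sets for the 5′ and 3′ parts of 28S had 0.53 and 0.13, and those for 18S lay between -0.03 and 0.00. In the other groups this probe set had 12.51, 12.77 and 12.66 in TQ+5-FU cells, against 11.33, 11.47 and 12.04 in 5-FU cells.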

How the results depend on the processing

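The 6552 calls and the 599 at 2-fold were recomputed under each alternative. With all 12 arrays in a single fit 56 passed and 26 at 2-fold, and of the 583 list members that passed 17 did. The methods' ANOVA with Tukey's HSD, recomputed here, gave 651 and 42, the methods' t-test 3591 and array weights 11598. For a call by that ANOVA both the adjusted p of the ANOVA and the Tukey p had to pass. The study reports a larger count for its ANOVA with Tukey's HSD, which this recomputation did not reproduce. Single arrays left out gave 4189 (without TQ replicate 3) to 8419 calls, and 348 (without control replicate 3) to 884 at 2-fold. The replicate number as a block gave 4601 calls and 599 at 2-fold. Same-numbered arrays did not deviate together (r between -0.405 and -0.095). This cannot show whether the numbers pair them, since differences within the groups also correlated with the displacement. For TQ replicate 1 minus replicates 2 and 3 r was 0.644, and for control replicate 1 minus replicate 3 it was -0.658. The score of the displacement as a covariate, chosen after seeing the data, left 32 calls, all 2-fold. That score was -0.144, -0.273 and -0.259 in the TQ arrays, against -0.067, -0.001 and 0.069 in the control arrays, without overlap. Such a covariate goes along with the treatment, and the fit cannot separate them. Calls lost and signs turned with the covariate, here and below, therefore do not show whether the differences depend on the displacement. With displaced probe sets taken out 3913 of 18269 passed, 79 at 2-fold. The counts of the effect of TQ in 5-FU cells and of its difference from TQ alone, 164 and 28, were 1362 and 2196 without the 2 arrays that stand apart. Without the same 2 arrays the fit on all groups gave 6799 calls. The cause of these moves was not tested. Of the 152 genes named above that passed, 152 kept their call and sign under quantile normalization, 151 with centred arrays (not DNAJB1), 152 with array weights, 145 with the block, 139 to 151 with single arrays left out, 128 with the t-test, 55 with the ANOVA, 21 with all 12 arrays and 14 with the covariate. Of these 152, 14 lost the call without at least 1 array (BST2, CEBPB, DNAJB1, GCLM, HSP90AA1, JUN, KEAP1, PLAUR, PLK1, SOX4, TGFB1, TNFRSF10B, UGDH and ZEB1), all with an adjusted p of 0.013 or more in the full comparison. The sign turned for HSPB1 without control replicate 3 (0.00043) and with the covariate (0.26), for SERPINH1 without TQ replicate 3 (0.025, against -0.20 without TQ replicate 1) and with the covariate (0.27), and with the covariate for CDKN1A (0.27), HSF1 (0.049), EBI3 (0.10), HSP90AA1 (-0.12) and UGDH (-0.040). With all probe sets split into 3 equal classes of signal, 7.48% passed in the lowest, 37.5% in the middle and 43.5% in the highest one. Whether differences were missed in dim probe sets was not tested.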
